A study of Zea mays with 18 samples.

Results

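The 150 genes described here had the most even transcript levels across all 18 libraries of a maize gamete and zygote series. They were chosen by measured values. Counts of each library were divided by the library total, scaled with TMM factors (a trimmed mean of ratios between libraries) and given as CPM, the count per 1000000 counts. Among the 5270 of 39475 gene IDs with a mean of at least 50 CPM, the 150 with the lowest coefficient of variation (CV, the SD over 18 libraries divided by the mean) were kept. Their evenness is therefore a description and was not tested. The label "most stable" held under TMM scaling, and the choice changed with the scaling, as given below.

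All cells came from the inbred maize line B73, and the series traced the gametes, the zygote and its first division. Its 6 groups of 3 libraries were sperm, egg, the zygote at 12 h and at 24 h (hap in the labels, taken to mean hours after pollination), and the apical and the basal daughter cell of the zygote. Polyadenylated RNA was amplified from pooled isolated cells: a library held 1000 cells of sperm or 20 of egg, 14 to 15 of the 12 h zygote or 16 to 17 of the 24 h zygote, and 16 apical or 13 to 14 basal ones. Whether replicates stem from separate plants is not stated in the labels, and the p-values below cover only the spread between these libraries, which may be technical.

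Genes that every cell needs are often called housekeeping genes, and measurements of transcripts are commonly set against a few of them as an internal reference. Actin and tubulin build the cytoskeleton, ubiquitin marks proteins for breakdown, GAPDH is an enzyme of glycolysis, and elongation factor 1-alpha brings transfer RNA to the ribosome. Such genes usually belong to families of several copies, and copies can differ in the cells that use them. A level in CPM is a share of the RNA sequenced, so an even CPM does not give an even number of transcripts per cell. Nor does it show how much RNA a cell held.

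Library totals ranged from 11128444 to 25771168 counts. The cell labels were checked in part against marker genes matched by name, and no class of markers was for apical or basal cells. The 1 sperm marker matched, hap2 (a gamete fusion protein), had 585.9 to 922.5 CPM in sperm libraries and at most 8.625 CPM in the others. The 5 egg and embryo sac markers summed to 606.3 to 4106 CPM in egg libraries and 30.86 to 35.01 CPM in sperm libraries, and were still at 610.4 to 2000 CPM in zygote libraries. Daughter cell libraries had 64.43 to 206.8 CPM of them. The 2 zygote and embryo markers summed to 9.332 to 16.8 CPM in zygote libraries and at most 4.501 CPM in the others. The sum was mostly wox9A, which averaged 10.2 CPM in 12 h and 9.333 CPM in 24 h zygotes. The other, wox2A, averaged 1.143 CPM in 12 h and 3.763 CPM in 24 h zygotes, against 1.963 CPM in egg and 1.73 CPM in basal cells. The 4 cell division markers summed to 300.5 to 569.9 CPM in 24 h zygote and daughter cell libraries and at most 67.86 CPM in the others. The 7 mature pollen markers summed to 1057 to 1392 CPM in sperm libraries, 148.9 CPM in apical replicate 1 and 1.794 to 38.95 CPM in all others. None of these markers was among the 150 genes, and their part in the results below was not tested. Egg libraries stood apart from each other most: the chi-square per degree of freedom between pairs was 138.5 to 256.8 in egg and 22.73 to 103.5 in the other groups. Without egg replicate 1, 147 of the 150 genes still had a mean of at least 50 CPM, and these 147 all lay among the 10% of genes with the lowest CV. The remaining libraries had also served to choose the genes, so this supports nothing.

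The CV of the 150 genes ran from 0.119 to 0.3029 with a median of 0.2661, against a median of 0.7501 over the 5120 other genes with at least 50 CPM. The last genes inside were GRMZM5G877985 at 0.3014, GRMZM2G099487 at 0.3016 and GRMZM2G121776 at 0.3029. The first outside were GRMZM2G070693 at 0.3035, GRMZM2G124441 at 0.304 and GRMZM2G348697 at 0.3041, so no gap marked the edge. GRMZM2G070693 was held outside by 1 library, since its CV was 0.1491 without egg replicate 2. Mean levels of the 150 genes ranged from 50.15 to 1793 CPM with a median of 92.83 CPM, and 85 of them were under 100 CPM. The other genes had a median of 106 CPM. CPM are not divided by gene length, so these means order genes by their counts and not by their transcript levels. The 3 highest means were those of ubiquitin GRMZM2G419891 (1793 CPM), the unnamed GRMZM2G126594 (453.0 CPM) and PK (452.6 CPM). The 3 lowest were those of GRMZM2G100946 (50.15 CPM), GRMZM2G114098 (50.23 CPM) and GRMZM2G451882 (50.77 CPM), all without an informative name. The CV that counting error alone would give had a median of 0.02502 for the 150 genes and 0.02414 for the others. The lowest single count of any of the 150 genes in any library was 217, so counting error was a small part of their spread.

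**Figure D1:**
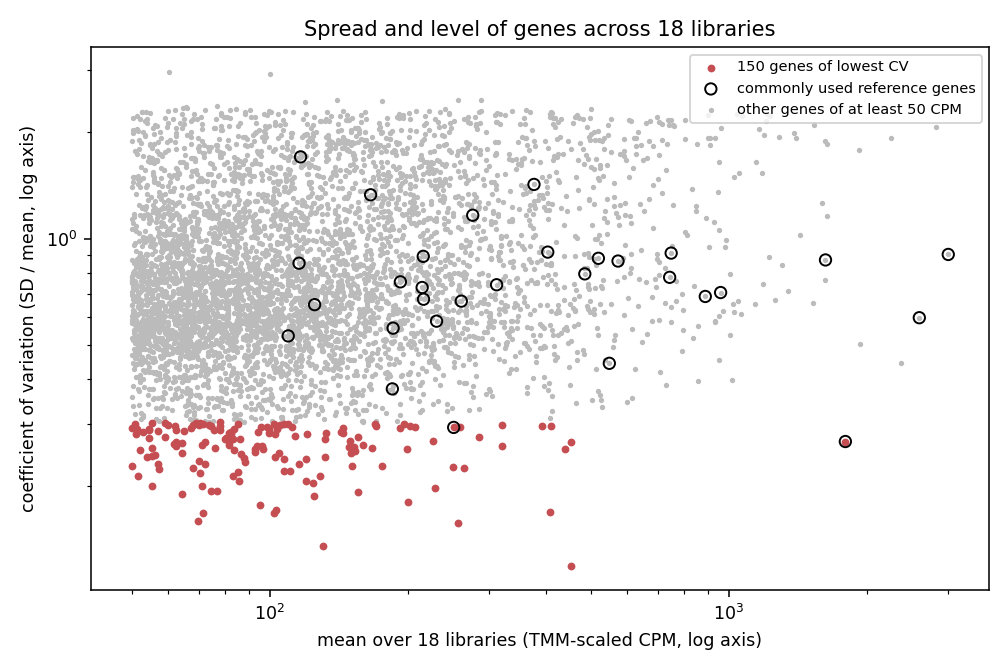
Each point is a gene with a mean of at least 50 TMM-scaled CPM, plotted by its mean (x axis, log scale) and its CV over 18 libraries (y axis, log scale). The 150 genes of lowest CV (red) lie at or under 0.3029, and of the 30 commonly used reference genes (circles) 2 lie among them.

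Most of the 150 genes carried no informative name. Of them, 112 matched a gene in the reference table and 15 had a name beyond a locus number. The most even gene of all was GRMZM2G003883, whose only name is the unexplained symbol PK and whose role is therefore not given. It had 466.9, 480.3 and 401.8 CPM in sperm, 413.3, 464.7 and 400.4 CPM in egg, and 415.9, 462.1 and 440.9 CPM in 12 h zygotes. It had 540.3, 532.8 and 562.3 CPM in 24 h zygotes, 425.3, 401.6 and 430.8 CPM in apical cells, and 489.9, 361.0 and 456.0 CPM in basal cells. The 24 h zygote libraries were the highest and did not overlap with any other group, while the other 5 groups overlapped. The highest library stood 1.558 times over the lowest. The next most even genes, GRMZM2G004459, GRMZM2G011355 and GRMZM2G007122, had CVs of 0.135, 0.1566 and 0.1593 and no informative name.

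Among the genes of the translation machinery, eIF4E1 (GRMZM2G002616) and rpp1a (GRMZM2G032315) belonged to the 150. eIF4E binds the cap of messenger RNA at the start of translation. The gene eIF4E1, with a CV of 0.193, had 71.63, 107.6 and 82.16 CPM in sperm, 84.09, 60.29 and 57.44 CPM in egg, and 78.34, 82.49 and 82.51 CPM in 12 h zygotes. It had 84.35, 83.21 and 108.1 CPM in 24 h zygotes, 71.2, 66.13 and 51.59 CPM in apical cells, and 69.16, 70.06 and 73.54 CPM in basal cells. The 24 h zygote libraries did not overlap with the apical or the basal libraries, and the sperm and egg libraries overlapped with each other. The gene rpp1a encodes an acidic protein of the ribosomal stalk and had a CV of 0.2596. Its levels were 296.2, 312.3 and 255.4 CPM in sperm and 419.3, 164.2 and 542.9 CPM in egg. Its means in the zygote were 316.5 CPM at 12 h and 335.9 CPM at 24 h, and its means in the daughter cells were 257.4 CPM (apical) and 350.0 CPM (basal). With TMM scaling the egg libraries held both its highest and its lowest value, and 23.42% of its variance lay between groups.

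The cytoskeleton list had 27 genes of at least 50 CPM, of which kin9 and 1 actin were among the 150. Kinesins are motor proteins that move along microtubules. The gene kin9 (GRMZM5G881464), with a CV of 0.1918, had 124.5, 162.1 and 88.3 CPM in sperm, 158.5, 162.5 and 123.8 CPM in egg, and 112.1, 143.1 and 137.5 CPM in 12 h zygotes. It had 166.8, 169.6 and 201.8 CPM in 24 h zygotes, 196.2, 147.6 and 187.3 CPM in apical cells, and 175.7, 175.5 and 170.0 CPM in basal cells. Libraries of 24 h zygotes and basal cells lay over all sperm, egg and 12 h zygote libraries, and the apical libraries overlapped with the egg libraries. With library size alone the 24 h zygotes kept this place, whereas the basal mean, 180.5 CPM, was under the 12 h zygote mean, 194.6 CPM. The actin gene GRMZM2G082484, named Actin-7, had a CV of 0.2927, and actin forms the filaments of the cell. It had 369.2, 332.6 and 283.7 CPM in sperm, 70.6, 237.5 and 188.6 CPM in egg, and 233.9, 332.2 and 249.8 CPM in 12 h zygotes. It had 287.6, 276.9 and 241.9 CPM in 24 h zygotes, 197.5, 157.9 and 201.9 CPM in apical cells, and 282.3, 233.6 and 349.0 CPM in basal cells. Egg replicate 1 was the lowest of all libraries, and the highest library stood 5.23 times over it.

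The named genes also included pdc3, akin1 and MPK5. Pyruvate decarboxylase, the enzyme that turns pyruvate into acetaldehyde in fermentation, is encoded by pdc3 (GRMZM2G087186, CV 0.1976). It averaged 263.0 ± 27.36 CPM in sperm, 193.5 ± 98.63 CPM in egg, 211.3 ± 18.13 CPM in 12 h zygotes, 236.0 ± 23.64 CPM in 24 h zygotes, 230.3 ± 4.067 CPM in apical cells and 239.6 ± 41.03 CPM in basal cells (SD, n = 3 each). With TMM scaling its egg libraries, at 307.3, 140.7 and 132.5 CPM, spanned the whole range of the other groups. The gene akin1 (GRMZM2G047774, CV 0.2239) is named after SNF4, a subunit of an energy-sensing kinase known from yeast. Its group means lay between 46.81 CPM in sperm and 73.47 CPM in 24 h zygotes. The MAP kinase gene MPK5 (GRMZM2G020216, CV 0.2615) belongs to a class of enzymes that relay signals by phosphorylation. It had 99.24, 119.8 and 95.0 CPM in sperm, 61.9, 65.64 and 48.97 CPM in egg, and 53.11, 52.78 and 54.5 CPM in 12 h zygotes. It had 80.71, 71.58 and 71.59 CPM in 24 h zygotes, 66.38, 60.19 and 54.79 CPM in apical cells, and 79.67, 68.04 and 75.76 CPM in basal cells. With TMM scaling the sperm libraries were over every other library, and 88.11% of its variance lay between groups. With library size alone its sperm mean, 50.44 CPM, was the lowest of the 6 groups.

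The ubiquitin gene GRMZM2G419891 (CV 0.267) had the highest mean CPM of the 150, 1793 CPM. It had 2864, 2335 and 2458 CPM in sperm, 1085, 1995 and 1532 CPM in egg, and 1206, 1296 and 1755 CPM in 12 h zygotes. It had 1566, 1841 and 1357 CPM in 24 h zygotes, 1608, 2157 and 2256 CPM in apical cells, and 1517, 1499 and 1953 CPM in basal cells. With TMM scaling the sperm libraries were over every other library, whereas with library size alone the sperm mean, 1222 CPM, was the lowest of the 6 groups. This gene matched 2 reference genes and shared an entry with another ubiquitin ID, so reads of near-identical copies may be split among them and its level is uncertain.

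Genes with chromatin names were nfe101 (GRMZM2G064145, CV 0.2718) and ALF6 (GRMZM2G115424, CV 0.2832). ALF6 carries the name of the Alfin-like proteins, which in Arabidopsis bind a methylated histone. It had 64.23, 44.58 and 52.91 CPM in sperm, 62.6, 52.26 and 76.48 CPM in egg, and 30.39, 33.23 and 36.37 CPM in 12 h zygotes. It had 37.97, 36.91 and 41.63 CPM in 24 h zygotes, 61.4, 62.5 and 73.69 CPM in apical cells, and 75.46, 62.29 and 49.08 CPM in basal cells. With TMM scaling the zygote libraries of both times lay under all libraries of the other 4 groups, whereas with library size alone the sperm mean, 25.74 CPM, was the lowest. The gene nfe101 had its highest mean, 104.6 CPM, in apical cells and its lowest, 53.36 CPM, in egg, but with library size alone its highest, 142 CPM, was in 12 h zygotes and its lowest, 32.19 CPM, in sperm. The ankyrin-1 gene (GRMZM2G155314, CV 0.2944) is named after a repeat that binds other proteins. With TMM scaling its means were 184.5 ± 17.49 CPM in sperm, 175.5 ± 63.9 CPM in egg and 258.5 ± 29.85 CPM in 12 h zygotes. They were 294.7 ± 30.2 CPM in 24 h zygotes, 186.2 ± 24.7 CPM in apical cells and 144.4 ± 23.6 CPM in basal cells (SD, n = 3 each). With library size alone its lowest mean was that of sperm, 88.81 CPM, beside 148.8 CPM in basal cells. For the symbols acpt1, DP2 and TPS3 no role is given, and their CVs were 0.2564, 0.2811 and 0.2932.

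**Figure D2:**
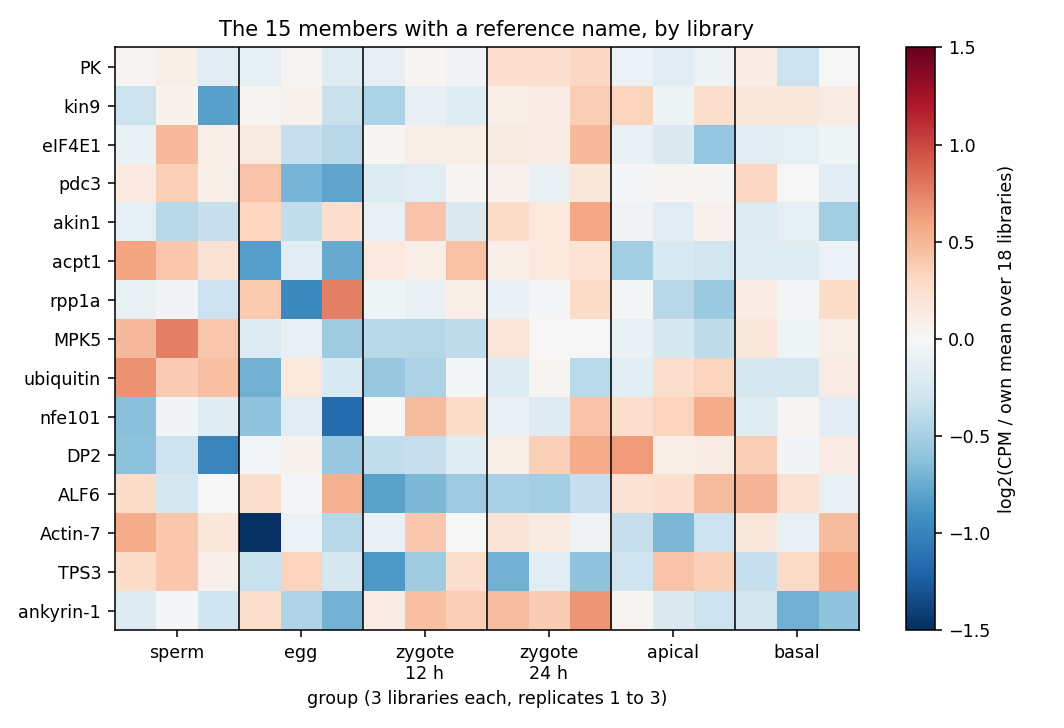
Each row is 1 of the 15 named genes among the 150, from the lowest CV (top) to the highest, and each column is 1 of 18 libraries, with colour giving the log2 of TMM-scaled CPM over the gene's own mean. PK shows the palest row, Actin-7 is darkest blue in egg replicate 1, and MPK5 and ubiquitin are red in all 3 sperm libraries, a direction that turns with library size alone.

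Most commonly used reference genes were not among the 150. Of 30 such genes with at least 50 CPM, 2 were among the 150, the ubiquitin gene GRMZM2G419891 and the Actin-7 gene GRMZM2G082484. That is 6.667% of the list, against 2.846% of all 5270 genes, and the median CV of the list was 0.7483, against 0.7355 over all 5270 genes. The 4 GAPDH genes had CVs of 0.6662 to 0.8713 and the 3 elongation factor 1-alpha genes 0.7781 to 0.8807. All of them had their lowest mean in sperm, at 9.508 to 206.8 CPM for GAPDH and 2.605 to 107.3 CPM for elongation factor 1-alpha. Their CVs without sperm are not given, so these CVs do not show how even they were among the other groups. The highest CVs of the list were 1.425 for the tubulin gene tua5 and 1.705 for the actin gene GRMZM2G006765. Without the sperm libraries the CV of that actin gene was 0.3504 and that of tua5 was 0.9306.

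Other gene groups were read by symbol, and the share of each among the 150 stands beside 2.846% of all 5270 genes. The 150 included 1 of 13 translation factors (7.692%), 1 of 15 genes of ubiquitin and the proteasome (6.667%) and 1 of 31 ribosomal protein genes (3.226%). They also included 2 of 57 chromatin genes (3.509%), 2 of 27 cytoskeleton genes (7.407%) and 2 of 25 genes of protein kinases, their subunits, phosphatases and 14-3-3 proteins (8%). With 1 or 2 genes each, these shares show no more than the counts. None of 9 vesicle traffic genes, 20 splicing and RNA processing genes, 20 mitochondrial genes, 26 transcription factors, 20 chaperones and 22 cell cycle genes was among them, and lists of this size would hold few at the share of all genes. The median CV of these groups ran from 0.5866 for ribosomal proteins to 0.9332 for transcription factors. Only 617 of the 5270 genes had an informative name, and 2.431% of these were among the 150, so most of the 150 genes could not be placed in any group.

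Several even genes had uneven relatives, a comparison chosen after the values had been seen and made among genes of at least 50 CPM. The relative of eIF4E1 in plants is eIFiso-4E, another cap-binding protein. Its gene GRMZM2G022019 had 0.2311, 2.631 and 1.009 CPM in sperm, 206.2, 97.8 and 117.8 CPM in egg, and 157.4, 144.5 and 161.7 CPM in 12 h zygotes. It had 107.1, 105.4 and 158.5 CPM in 24 h zygotes, 23.95, 29.37 and 21.24 CPM in apical cells, and 24.73, 33.88 and 31.18 CPM in basal cells. The sperm libraries lay under all others, and its CV was 0.8523, while eIF4E1 had a CV of 0.193.

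Of 9 genes named as acidic ribosomal proteins, rpp1a was the most even and the other 8 had CVs of 0.4331 to 1.391. The gene RP-P0 (GRMZM2G066460), the core of the stalk, averaged 4.48 ± 1.796 CPM in sperm and 1400 ± 774.4 CPM in egg, whereas rpp1a averaged 288.0 ± 29.37 CPM in sperm and 375.5 ± 193.1 CPM in egg (SD, n = 3 each). Of 7 kinesin genes at that level, kin9 was the most even and the others had CVs of 0.3503 to 1.339. The kinesin gene GRMZM2G136838, also named kin2, averaged 1317 ± 230.3 CPM in sperm and 9.463 ± 15.89 CPM in egg (SD, n = 3 each). Of 6 actin genes, CVs ran from 0.2927 to 1.705. The most uneven, GRMZM2G006765, averaged 548.6 ± 12.01 CPM in sperm and 32.72 ± 14.26 CPM in egg (SD, n = 3 each). The ubiquitin gene GRMZM2G409726, which shares a reference entry with GRMZM2G419891, averaged 8592 ± 1089 CPM in sperm and 2850 ± 1560 CPM in egg (SD, n = 3 each), and had a CV of 0.9031. Reads that fit more than 1 copy are uncertain in all of these families.

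**Figure D3:**
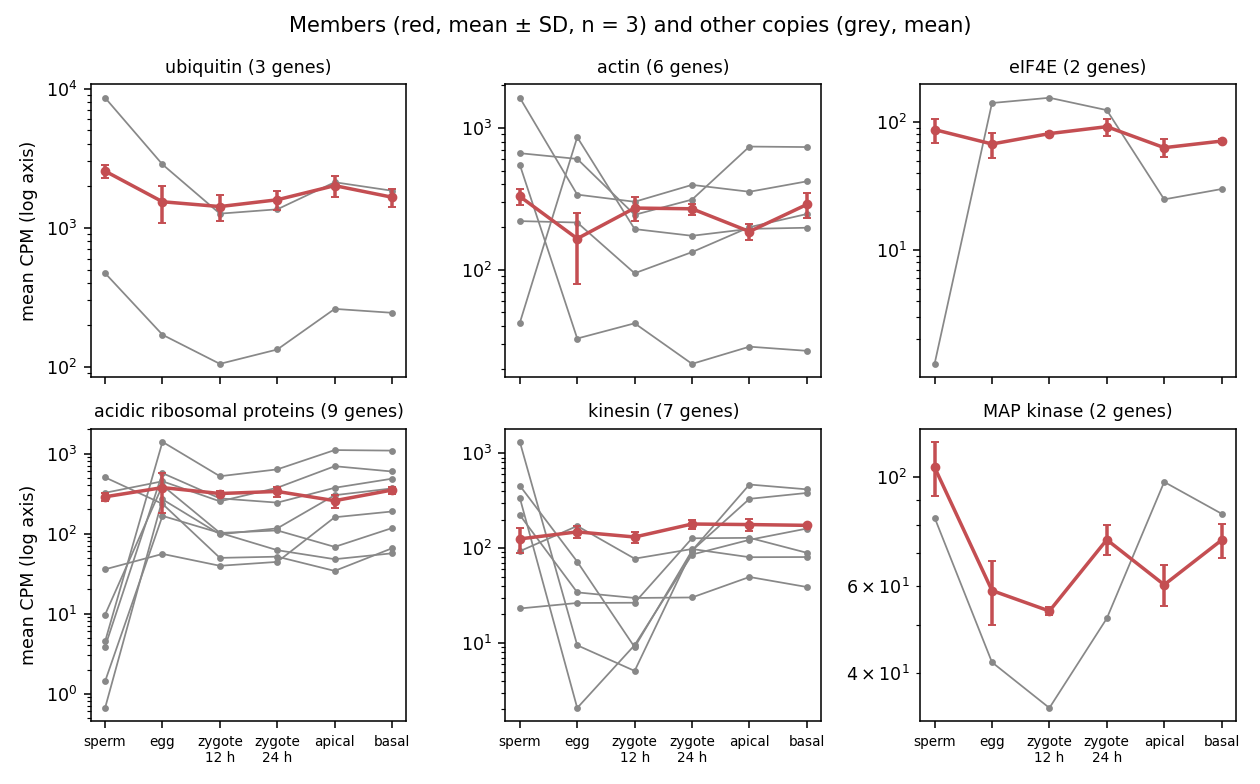
Group means in CPM (y axes, log scale) of the gene copies of 6 families in the 6 cell groups (x axes), with the gene among the 150 in red (error bars, SD over 3 libraries) and the other copies in grey. The red lines stay within a factor of 2 across groups, and the grey eIFiso-4E line lies at 1.29 CPM in sperm.

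Even the most even genes had unequal group means. The ratio of the largest to the smallest group mean ran from 1.231 to 2.512 over the 150 genes, with a median of 1.832. Over the other genes with a mean above 0 in every group the median was 13.05. The ratio was under 1.5 for 26 of the 150 genes and under 2 for 113, and 39 other genes also had a ratio under 2. A median of 67.78% of the variance lay between groups for the 150 genes and 89.9% for the others. For 120 of the 150 genes, more than 50% lay between groups. Means of 3 libraries vary even where groups do not differ, so part of this share arises without any group difference, and it was not subtracted. The within-group CV had a median of 0.1764 for the 150 genes and 0.2552 for the others. The choice by low CV used the same values, so nothing is read from these contrasts with the other genes.

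The gene with the flattest group means was GRMZM2G035341, between 111.9 CPM in sperm and 137.7 CPM in basal cells. Its egg libraries were at 113.8, 59.93 and 183.9 CPM, so its flat means hid a wide spread in egg. The gene with the widest group means was GRMZM2G158887. It had 99.36, 94.73 and 89.59 CPM in sperm and 183.4, 220.3 and 308.9 CPM in egg, with means of 164.1 to 187.6 CPM in the other groups. The sperm libraries lay under all others. With TMM scaling GRMZM2G145396 had 91.39% of its variance between groups, the largest share among the 150. It had 605.0, 620.4 and 562.2 CPM in sperm, 464.3, 520.0 and 614.3 CPM in egg and means of 307.1 to 371.6 CPM in the other 4 groups. This gene was also chosen with library size alone, with a CV of 0.2424 there. The order of its groups is given for TMM scaling only and depends on it.

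A few of the 150 genes had 1 library far from the rest. GRMZM2G014341 had the largest gap between libraries, 6.592 times, with 15.69 CPM in egg replicate 2, 57.66 and 59.25 CPM in the other egg libraries and 41.32 to 103.4 CPM elsewhere. GRMZM5G822591 had 28.91 CPM in egg replicate 2, against 176.2 and 175.6 CPM in the other egg libraries. Over the 150 genes, the median CV within a group was largest in egg, at 0.2177, and smallest in 24 h zygotes, at 0.1026. The other genes had 0.4306 in egg and 0.1379 in 24 h zygotes, so egg libraries also had the widest spread among them.

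The group in which a gene was highest differed from gene to gene. Of the 150 genes, sperm had the highest mean for 37, egg for 25, the 12 h zygote for 8, the 24 h zygote for 37, the apical cell for 32 and the basal cell for 11. Sperm had the lowest mean for 37, egg for 22, the 12 h zygote for 55, the 24 h zygote for 6, the apical cell for 13 and the basal cell for 17. The commonest pair, 18 genes, was highest in apical cells and lowest in 12 h zygotes. A further 16 were highest in sperm and lowest in 12 h zygotes, and 16 were highest in 24 h zygotes and lowest in sperm. Sperm was the highest group for 24.67% of the 150 genes and 45.55% of the other genes, and the lowest for 24.67% and 40.27%. The 24 h zygotes were the highest for 24.67% of the 150 genes and 5.391% of the others, and the 12 h zygotes the lowest for 36.67% and 23.57%. The median of the 150 genes relative to their own mean was -0.19 (log2) in 12 h zygotes and 0.11 in apical cells. These directions depend on the scaling, because with library size alone the median level of the 150 genes in 12 h zygotes was over that of every group but 24 h zygotes.

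**Figure D4:**
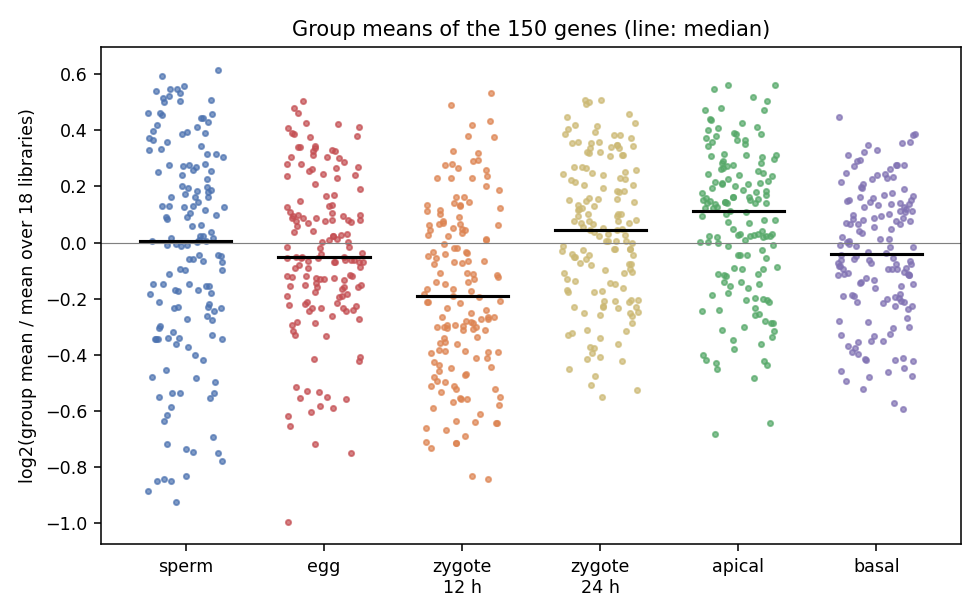
Each point is the log2 of a gene's group mean over its mean across 18 libraries (y axis) for the 150 genes in each cell group (x axis), and black lines give the median. The medians lie between -0.19 in 12 h zygotes and 0.11 in apical cells.

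As a share of all counts, the 150 genes were not level. Sperm libraries gave them 0.9649% to 1.08% of their counts, and egg libraries 1.709% to 2.395%. Zygote libraries gave them 2.504% to 2.686% at 12 h and 2.767% to 2.828% at 24 h, and the daughter cells 2.008% to 2.119% (apical) and 1.988% to 2.067% (basal). The sperm libraries lay under every other library, and the 24 h zygote libraries over every other library. The TMM factors, which multiply the library totals, were 0.4536 to 0.5016 in sperm and 1.364 to 1.558 in zygotes. With library size alone, the median gene of the 150 had 48.04 CPM in sperm, 90.91 CPM in egg, 122 CPM in the zygote at 12 h, 129.5 CPM in that at 24 h, 100.9 CPM in the apical and 91.33 CPM in the basal cell. After TMM scaling the medians were 99.79 CPM in sperm, 92.03 CPM in egg, 81.84 CPM in the zygote at 12 h, 93.75 CPM in that at 24 h, 102 CPM in the apical and 87.84 CPM in the basal cell. PK shows the same in 1 gene: with library size alone its CV was 0.3758, with 211.8, 240.9 and 195.5 CPM in sperm, 746.2, 747.2 and 766.9 CPM in 24 h zygotes and means of 414.4 to 654.9 CPM in the other groups.

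The choice of genes followed from that scaling. With RLE factors (the median ratio to a mean library), 112 of the 150 genes were chosen again, with upper-quartile factors 40, with library size alone 11, and none by all 4 scalings. With library size alone the median ratio of the largest to the smallest group mean was 3.152 over the 150 genes. Of the named genes, only ubiquitin GRMZM2G419891 was among the 11, and its CV was 0.2488 there. With library size alone 61 of the 150 genes lay among the 10% with the lowest CV, and 92 did with upper-quartile factors. They had been chosen for low CVs in the same counts, so this describes the choice and supports nothing.

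Leaving out the 3 sperm libraries changed the choice as well. Only 28 of the 150 genes were chosen again from the 15 other libraries, among them PK, kin9, MPK5 and ubiquitin GRMZM2G419891, with CVs of 0.1447, 0.1534, 0.1551 and 0.2045 there. The median CV without sperm was 0.2449 for the 150 genes and 0.4716 for all genes with at least 50 CPM, and 92 of the 150 lay among the 10% with the lowest CV. The choice of the 150 had used these 15 libraries too, so these values support nothing. Within the 3 sperm libraries alone, the 150 genes had a median CV of 0.1329, against 0.1155 for the 4612 genes with at least 50 CPM in sperm and 0.1468 for the 5120 other genes with at least 50 CPM over all libraries. The order therefore depends on the genes they are set beside, and 136 of the 150 reached 50 CPM in sperm.

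**Figure D5:**
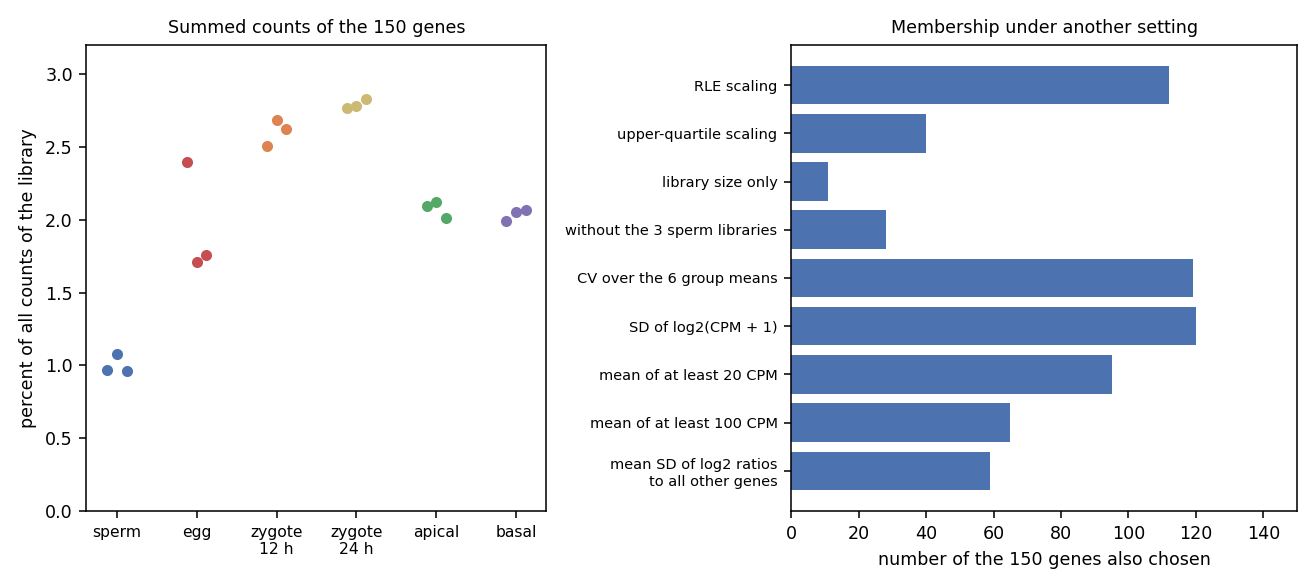
Left, the summed counts of the 150 genes as a percentage of all counts in each of 18 libraries (points), by cell group; right, the number of the 150 genes also chosen under each other setting (bars). The sperm points lie at 0.9649% to 1.08%, and the bars run from 11 for library size only to 120 for the SD of log2 values.

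Ratios between genes within a library need no scaling factor. Genes chosen for low CVs in the same libraries must also have steadier ratios, so the values that follow describe the choice and support nothing. The SD over 18 libraries of the log2 ratio of 2 genes had a median of 0.5172 over the 11175 pairs among the 150, against 1.932 over all 13883815 pairs of genes with at least 50 CPM. Among named genes the tightest pairs were kin9 with DP2 at 0.1992, PK with eIF4E1 at 0.2431 and PK with kin9 at 0.2839. The widest was ALF6 with Actin-7 at 0.8026. Choosing genes by their mean SD of log2 ratios to all other genes, an alternative added after seeing the data, kept 59 of the 150.

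The reference order of genes, which comes from a newer assembly and is used for neighbours only, gave 106 of the 150 genes 1 place. Of these, 1 pair were next to each other, GRMZM2G019236 and GRMZM2G050649. GRMZM2G019236 had its highest mean, 213.1 CPM, in egg, whereas GRMZM2G050649 had its highest in apical cells and its lowest in egg.

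Each group comparison was also tested across all genes with edgeR's quasi-likelihood test (Benjamini-Hochberg adjusted p under 0.05). The choice of the 150 genes used the same libraries, so nothing is read from the counts that follow. Over all 6 groups, 87 of the 150 genes (58%) were called different, beside 84.2% of all tested genes. The other genes with at least 50 CPM gave 98.83%. In sperm against egg 42 (28%) were called, beside 63.9% of all tested genes and 87.77% of those other genes. Of these 42, 16 were higher in sperm and 26 lower. That is 38.1% higher, beside 38.57% of all called genes. Of all tested genes, 24.7% were called higher and 39.3% lower. The split among the 150 genes turned with the scaling. RLE factors gave 48 higher and 8 lower, which is 85.71% higher, beside 42.76% of all called genes. Library size alone gave 0 higher and 117 lower, beside 25.8% higher among all called genes. The median log2 fold change over all tested genes was -0.80 with TMM, -0.47 with RLE and -1.80 with library size alone, and over the 150 genes it was -0.02, 0.31 and -1.03 under these scalings. With TMM scaling, called higher in sperm were acpt1 (log2 fold change 0.92), MPK5 (0.78), ubiquitin GRMZM2G419891 (0.69) and Actin-7 GRMZM2G082484 (0.95). The median absolute log2 fold change was 0.34 over the 150 genes and 2.82 over all tested genes.

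In 12 h zygotes against egg, 25 of the 150 genes (16.67%) were called, beside 37.4% of all tested genes and 52.03% of the other genes with at least 50 CPM. Of these, 8 were higher in 12 h zygotes and 17 lower. That is 32% higher, beside 51.76% of all called genes. Of all tested genes, 19.4% were called higher and 18.1% lower. RLE factors gave 13 higher and 12 lower, which is 52% higher, beside 56.1% of all called genes. Library size alone gave 38 higher and 0 lower, beside 73.86% higher among all called genes. The median over all tested genes was 0.06 (log2) with TMM, 0.17 with RLE and 0.58 with library size alone. With TMM, the log2 fold change was 0.83 for acpt1, 0.87 for nfe101 and -0.90 for ALF6. In 24 h against 12 h zygotes 2 (1.333%) were called, beside 1.04% of all tested genes and 2.111% of the other genes with at least 50 CPM. Both were higher at 24 h, beside 96.37% of all called genes. Of all tested genes, 1% were called higher and 0.0378% lower. The 2 were GRMZM2G021219 (log2 fold change 1.11) and GRMZM2G026639 (1.18), which have no informative name. Without egg replicate 1 the count for 12 h zygotes against egg was 40, and without 12 h zygote replicate 3 it was 12. The count for 24 h against 12 h zygotes was 0 without 12 h zygote replicate 1 and 0 without 24 h zygote replicate 3. These counts with a library left out are for the 150 genes only. They do not show whether a shift was particular to these genes.

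In apical cells against 24 h zygotes 18 (12%) were called, beside 24.9% of all tested genes and 42.9% of the other genes with at least 50 CPM. Of these 18, 9 were higher and 9 lower, so 50% were higher, beside 52.42% of all called genes. Of all tested genes, 13% were called higher and 11.8% lower. RLE factors gave 9 higher and 12 lower there, beside 51.11% higher among all called genes. Library size alone gave 0 higher and 45 lower, beside 29.62% higher among all called genes. With TMM, ALF6 was called higher in apical cells (log2 fold change 0.70) and ankyrin-1 lower (-0.72). In basal cells against 24 h zygotes 20 (13.33%) were called, beside 18% of all tested genes and 35.61% of the other genes with at least 50 CPM. Of these 20, 1 was higher and 19 lower, so 5% were higher, beside 54.61% of all called genes. Of all tested genes, 9.81% were called higher and 8.15% lower. Library size alone gave 0 higher and 43 lower, beside 33.16% higher among all called genes. The median over all tested genes, which was -0.13 (log2) for apical and -0.20 for basal cells with TMM, was -0.55 for both with library size alone. Ankyrin-1 was called lower in basal cells (-1.09). Both counts, 18 and 20, were 2 without 24 h zygote replicate 3, where the count over all tested genes is not given. In apical against basal cells 0 of the 150 genes were called by edgeR, beside 0% of all tested genes. At an unadjusted p under 0.05, edgeR gave 9 of the 150 genes and 1267 of all genes there, and DESeq2 called 0 of the 150 and 82 of all genes. Comparisons that include the same group share its libraries. Over the 6 pairwise comparisons, 71 of the 150 genes were called in 0, 54 in 1, 22 in 2 and 3 in 3. The same count is not given over all tested genes, so nothing is read from it.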

How the data were processed

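Polyadenylated RNA of 18 libraries in 6 groups of 3 was sequenced after low-input cDNA amplification, per the labels' protocols. The authors deposited raw counts per gene ID, and 0 rows named no gene. The submitters' processing notes list STAR 2.5.2a, featureCounts, Trimmomatic 0.32, cutadapt 1.13, FastQC and DESeq2, with B73 RefGen_v3 as the genome build. Strandedness and the handling of multi-mapped reads were not given in the sources used here. Near-identical and overlapping genes are therefore uncertain. CPM are not divided by gene length, and levels between genes are given only as an order of counts. A RefSeq gene table (Zm-B73-REFERENCE-NAM-5.0) matched 18908 of 39475 IDs and named 2557. Coordinates and sequences are not given.

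The 150 genes and all lists were chosen with earlier results of these data known. Lists go by symbol, and 6 genes of ambiguous or other meaning (TIFY21, TIFY30, TIFY12, psk1, RAB15 and TIM) were taken off them after their values were seen. Counts were scaled by TMM and tested in R 4.3.3 by the robust quasi-likelihood test of edgeR 4.0.16 after filterByExpr, with DESeq2 1.42.0 as an alternative. Sperm against egg and the 6-group test used 18 libraries, and the other comparisons used the 15 without sperm. The scripts were tested on simulated data. Named are genes among the 150 with an informative name, those of the 3 highest and 3 lowest means, the 3 on either side of the CV limit, and extremes of the reference gene list. Genes singled out for other features were chosen after their values were seen. No pair of libraries differed by as little as sampling noise (chi-square per degree of freedom of at least 22.73 in genes counted at least 20 times). Reads had no molecular identifiers, so the counting CV covers counting error only. Other scalings, level minimums, left-out libraries and tests were tried.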

Additional observations from a re-analysis of the deposited data

How the results depend on the processing

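Of the 150 genes, other settings chose again 11 (library size only), 40 (upper-quartile scaling), 95 (mean of at least 20 CPM), 65 (mean of at least 100 CPM), 28 (without the 3 sperm libraries) and 59 (mean SD of log2 ratios, added after seeing the data). RLE scaling gave 112, CVs over the 6 group means 119 and the SD of log2 values 120. Leaving out 1 library in turn gave 121 to 143, with a CV limit of 0.292 to 0.308. The median ratio of group means was 3.152 with library size only and 1.836 without egg replicate 1.

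Calls among the 150 genes with library size only were 117 for sperm against egg, 140 over all groups, 38 for 12 h zygote against egg, 1 for 24 h against 12 h zygote, 45 for apical cell and 43 for basal cell against 24 h zygote. Without the low-count filter, 24 h against 12 h zygote gave 1 and basal cell against 24 h zygote 9. DESeq2 gave 62 for sperm against egg, 102 over all groups and 32 for 12 h zygote against egg, beside 16305, 21666 and 10571 of all genes. For 24 h against 12 h zygote it gave 4, beside 763 of all genes. For apical and basal cell against 24 h zygote it gave 32 and 28, beside 8015 and 6479 of all genes. Fits of only the 2 groups compared gave 13 for sperm against egg, 2 for 12 h zygote against egg, 9 for 24 h against 12 h zygote, 33 for apical cell and 42 for basal cell against 24 h zygote. Apart from those of DESeq2, call counts here and below are given for the 150 genes only. They do not show whether a shift was particular to these genes. The causes of these shifts were not tested.

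Leaving out each library in turn gave 31 to 48 calls for sperm against egg, 71 to 101 over all groups, 12 to 40 for 12 h zygote against egg, 0 to 2 for 24 h against 12 h zygote, 2 to 29 for apical cell and 2 to 29 for basal cell against 24 h zygote, and 0 for apical against basal cell. For 12 h zygote against egg, 1 library moved the count most each way: 40 without egg replicate 1 and 12 without 12 h zygote replicate 3. For apical cell against 24 h zygote the counts were 29 without egg replicate 1 or 2, 6, 4 and 2 without 24 h zygote replicate 1, 2 and 3, and 7, 10 and 3 without apical replicate 1, 2 and 3. For basal cell against 24 h zygote they were 3, 3 and 2 without 24 h zygote replicate 1, 2 and 3, 3, 6 and 3 without basal replicate 1, 2 and 3, and 12 without apical replicate 2. Calls for 24 h against 12 h zygote were 0 without 12 h zygote replicate 1 or 24 h zygote replicate 3, and 1 without 12 h zygote replicate 3, 24 h zygote replicate 1 or 2, or any apical or basal library.

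With the replicate number as a block, 24 h against 12 h zygote gave 1 call and basal cell against 24 h zygote 12. Apical against basal cell gave 0 calls with the block. The labels do not say that a number marks a shared origin, and same-numbered libraries correlated over 0.1 in all 3 pairs of no comparison, so the numbers were not taken as pairs. The closest were apical and basal cells, with correlations of 0.3309, 0.439 and -0.07311, where 4 of 6 libraries correlated best with their own number, a hint from the data and not the design. Planned sequence features were not run because promoter and protein sequences were not used here.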
